A study of Homo sapiens with 24 samples.

Results

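ATG13, CTSB, C16orf62 (now named VPS35L), VPS13C, SNX8 and TSNARE1 are genes of the autophagy, lysosome and endosome system, and the massively parallel reporter assay described here carried single-base variants of their 3′ untranslated regions (3′ UTRs). Every entry of the count table named for one of these 6 genes was taken. That gave 132 of the 13515 variants, at 105 SNPs, carried by 237 of the 24780 oligos and drawn from 6 of the 1637 genes. The genes were chosen by earlier results of the same libraries, namely the allelic effect and the activity in each cell line. For the variants that stood out, those values are therefore a description, and no p-value within a line is printed for them. Tests of a difference between the lines are built from the same contrasts, and their p-values are printed under that limit. The 8 entries without enough plasmid reads are accounted for below.

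The endosome and lysosome system sorts proteins and lipids taken up at the cell surface, returns some to the membrane and degrades the rest, and autophagy delivers cytoplasmic material to the same lysosomes. Neurons and microglia both depend on it for clearing protein aggregates and debris. A 3′ UTR carries binding sites for microRNAs and RNA-binding proteins, which set how stable and how well translated an mRNA is. In such a reporter assay, a fragment that destabilises the transcript leaves less reporter RNA per plasmid copy.

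Reporters were measured in the human neuroblastoma line SH-SY5Y (label SH) and in microglia immortalised with SV40 (label MG). Plasmid DNA and poly-A RNA were counted after lipid transfection (Lipofectamine 3000) in 6 independent transfections per line. The 24 libraries form 4 groups of 6: SH DNA, SH RNA, MG DNA and MG RNA. All groups received the pool of reporters, and apart from the cell line itself no group differed by genotype or drug. Each line is one immortalised line, and the counts cover reporters only, so the lines could not be checked against cell type markers. Libraries held 16556700 to 19101100 counts in SH DNA, 11764500 to 18100800 in SH RNA, 12154900 to 17570900 in MG DNA and 7018520 to 10437100 in MG RNA. Replicate RNA libraries were noisier in SH-SY5Y, where log counts of pairs of libraries correlated at 0.707 to 0.816 over 22127 oligos, than in microglia, at 0.913 to 0.958.

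One feature of the RNA libraries bears on every SH-SY5Y value. An SH-SY5Y RNA library and the microglia RNA library with the same replicate number deviated from their group means together, with correlations of 0.058 to 0.093, while library pairs with different numbers reached at most 0.00048. Plasmid DNA libraries did likewise, at 0.031 to 0.068 for the same number. As a setting added after the data were seen, an assumed shared part of each RNA library was taken off as its partner's reads. Its size was the slope of the library's log-count deviations on those of its same-numbered partner. That gave 10.7% to 26.9% of the SH-SY5Y RNA counts and 1.69% to 3.29% of the microglia RNA counts. These are not measured shares of reads. Counts of calls under this setting are given with the results, and the source of the correlation was not tested.

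By RefSeq's annotation of GRCh38.p14, the build the submitters' processing notes name as hg38, ATG13 lies on chromosome 11 (46617553 to 46674518), CTSB on chromosome 8 (11842524 to 11868087) and VPS13C on chromosome 15 (61852389 to 62060447). C16orf62, matched by its older symbol to VPS35L, lies on chromosome 16 (19555703 to 19701163), SNX8 on chromosome 7 (2251770 to 2354497) and TSNARE1 on chromosome 8 (142212080 to 142407029). These are the spans of the whole genes. The assay names its fragments as 3′ UTR, while the position of each SNP, the fragment sequences and the strand on which alleles are written were not used here.

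The pool held 13 variants at 12 SNPs of ATG13, 44 at 30 of CTSB, 23 at 21 of VPS13C, 3 at 3 of C16orf62, 12 at 11 of SNX8 and 37 at 28 of TSNARE1. A variant was tested where each allele averaged at least 10 plasmid DNA counts per library, which left 124 in both lines. Of the 8 others, ATG13 rs56349329 G>A and TSNARE1 rs12675715 A>C had no count in any library. The alternative allele had no plasmid count for SNX8 rs56019648 G>A, TSNARE1 rs7825772 C>T, TSNARE1 rs79248723 C>G and VPS13C rs115935867 A>G, and averaged 4.33 (SH-SY5Y) and 0.833 (microglia) counts for VPS13C rs17238127 T>C. The reference allele of TSNARE1 rs115303074 C>T had none.

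The allelic effect is the log2 of the alternative to reference ratio in RNA over the same ratio in plasmid DNA, so a positive value means that the alternative base left more reporter RNA per plasmid. In SH-SY5Y, 5 of the 124 variants passed an adjusted p of 0.05 in edgeR's quasi-likelihood test, 4 higher and 1 lower. Over all 13031 variants tested in that line the share was 0.399% (0.207% higher and 0.192% lower). In microglia 6 of the 124 passed, 4 higher and 2 lower, against 1.74% of all 13017 variants (0.914% higher and 0.822% lower). Each of the 6 genes held exactly 1 of these variants, a count that the choice of the genes fixed, so nothing is read from it. The median size of the effect over the 124 variants was 0.28 in SH-SY5Y and 0.16 in microglia, beside 0.25 and 0.17 over all variants tested.

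ATG13 is a subunit of the ULK1 kinase complex that starts autophagosome formation. For ATG13 rs7113453 G>A, the alternative A made up 51.4% to 57.5% (median 54.8%) of the plasmid counts in SH-SY5Y and 66.8% to 85.6% (median 77.3%) of the RNA counts. In microglia its share was 50.1% to 56.2% (median 53.8%) in DNA and 75.5% to 82.8% (median 78.7%) in RNA. The RNA and DNA shares did not overlap in either line. The SH-SY5Y RNA libraries fell into a high set, replicates 1 to 3 at 84.7% to 85.6%, and a lower set, replicates 4 to 6 at 66.8% to 69.9%, while the microglia libraries were close together. The allelic effect was 1.54 ± 0.77 (SD, n = 6) in SH-SY5Y, a 2.91-fold higher RNA yield of A, and 1.71 ± 0.21 (SD, n = 6) in microglia, or 3.26-fold.

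The reference was the low oligo of the pair. The activity of an oligo is the log2 of its RNA over its plasmid DNA set against the pool's typical oligo. The G oligo of ATG13 rs7113453 had an activity of -1.15 (SE 0.22) in SH-SY5Y and -1.43 (SE 0.10) in microglia, while the A oligo stood at 0.31 (SE 0.13) and 0.27 (SE 0.07). The replicates of the 2 oligos did not overlap in either line. In microglia the G oligo ranged from -1.73 to -1.20 and the A oligo from 0.13 to 0.42. Leaving out SH-SY5Y replicate 1, 2 or 3 ended the SH-SY5Y call of ATG13 rs7113453, with effects of 1.40, 1.39 and 1.39.

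CTSB encodes cathepsin B, a cysteine protease of the lysosome. For CTSB rs71518539 G>A, the share of A was 47.9% to 52.8% (median 50.1%) in SH-SY5Y DNA and 55.4% to 80.3% (median 69.7%) in RNA. In microglia it was 50.4% to 54.9% (median 52.9%) in DNA and 70.8% to 84.0% (median 72.8%) in RNA. RNA stood above DNA in both lines, and the ranges did not overlap. The effect was 1.16 ± 0.55 (SD, n = 6) in SH-SY5Y and 1.48 ± 0.46 (SD, n = 6) in microglia, 2.24-fold and 2.79-fold in favour of A.

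Both CTSB rs71518539 oligos left less RNA than the typical oligo, and the reference left far less. The G oligo had activities of -1.69 (SE 0.20) in SH-SY5Y and -1.85 (SE 0.14) in microglia. The A oligo had -0.60 (SE 0.11) and -0.41 (SE 0.09). The replicates of the 2 bases stayed apart in both lines: the lowest A replicate in microglia was -0.56 and the highest G replicate -1.33. The SH-SY5Y call was lost without replicate 2, 3, 4, 5 or 6, at effects of 1.13, 1.21, 1.17, 1.03 and 1.12.

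VPS13C is a bridge-shaped lipid transfer protein that sits where the endoplasmic reticulum touches late endosomes and lysosomes, and its loss causes an early-onset form of Parkinson's disease. VPS13C rs2059471 T>G ran the other way from the first 2 variants. The share of the alternative G was 36.9% to 45.6% (median 43.3%) in SH-SY5Y DNA and 16.9% to 34.9% (median 23.6%) in RNA, and 38.9% to 43.2% (median 40.4%) in microglia DNA and 13.8% to 25.1% (median 19.7%) in RNA. The effect was -1.16 ± 0.59 (SD, n = 6) in SH-SY5Y and -1.51 ± 0.35 (SD, n = 6) in microglia, 2.23-fold and 2.86-fold less RNA from G.

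Here the reference T oligo was near the typical oligo, at -0.05 (SE 0.10) in SH-SY5Y and 0.17 (SE 0.09) in microglia, and the G oligo was low, at -1.09 (SE 0.24) and -1.33 (SE 0.15). In microglia the T replicates lay between -0.08 and 0.39 and the G replicates between -1.85 and -0.91. In SH-SY5Y the 2 sets overlapped, since the highest G replicate was -0.22 and the lowest T replicate -0.40. Leaving out replicate 1, 3, 5 or 6 ended the SH-SY5Y call of VPS13C rs2059471, at effects of -1.13, -1.12, -1.02 and -1.09. Taking off the shared part of the RNA libraries ended the SH-SY5Y activity call of the G oligo (-1.02).

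C16orf62 is the older name of VPS35L, a subunit of the Retriever complex that returns membrane proteins from endosomes to the cell surface. It had only 3 variants in the pool. For C16orf62 rs116582019 C>A, the share of A was 41.5% to 45.3% (median 43.5%) in SH-SY5Y DNA and 52.4% to 85.4% (median 66.2%) in RNA. In microglia it was 41.5% to 50.4% (median 44.7%) in DNA and 71.5% to 85.6% (median 75.0%) in RNA. No RNA library overlapped the DNA libraries of its line. The effect in microglia, 2.00 ± 0.46 (SD, n = 6) or 3.99-fold, was the 16th highest of the 13017 variants tested there. In SH-SY5Y it was 1.54 ± 0.83 (SD, n = 6) or 2.90-fold, with replicate 4 lowest at 0.52 and replicate 3 highest at 2.93.

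The reference C oligo of C16orf62 rs116582019 had an activity of -2.17 (SE 0.12) in microglia, 4.50-fold under the typical oligo and the lowest there of the oligos of the 6 lead variants. In SH-SY5Y it had -1.31 (SE 0.19). The A oligo stood at -0.21 (SE 0.09) and 0.18 (SE 0.13). The bases did not overlap in either line. Without replicate 1, 2, 5 or 6 the SH-SY5Y call was lost, at effects of 1.60, 1.42, 1.61 and 1.54. The other C16orf62 variants had effects of -0.35 and 0.27 in SH-SY5Y and -0.11 and -0.0036 in microglia.

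SNX8 is a sorting nexin, a protein that binds phosphoinositides and curved membrane on endosomes. SNX8 rs62442512 C>T was the one lead variant called in microglia alone. The share of the alternative T was 83.9% to 89.4% (median 85.9%) in SH-SY5Y DNA and 77.5% to 93.1% (median 86.0%) in RNA, so the 2 ranges lay over each other. In microglia it was 86.1% to 94.1% (median 89.4%) in DNA and 61.8% to 79.9% (median 67.2%) in RNA, and these did not overlap. The effect was 0.0062 ± 0.67 (SD, n = 6) in SH-SY5Y and -1.98 ± 0.53 (SD, n = 6) in microglia, where T left 3.95-fold less RNA than C.

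The reference C was the rare oligo of this pair, with 216 to 353 plasmid counts per library in SH-SY5Y and 69 to 233 in microglia, beside 1533 to 1837 and 1099 to 1603 for T. The T oligo had activities of -0.73 (SE 0.17) in SH-SY5Y and -1.52 (SE 0.14) in microglia. The C oligo had -0.69 (SE 0.33) and 0.36 (SE 0.24). In microglia all 6 C replicates lay between 0.29 and 0.56 and all 6 T replicates between -2.14 and -0.87. In SH-SY5Y the C replicates ran from -1.41 to 0.32 and covered most of the T range of -1.80 to -0.30. The SH-SY5Y activity call of T ended with the shared part of the RNA libraries taken off (-0.64).

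The difference in the allelic effect of SNX8 rs62442512 between the lines was -1.996 (SE 0.41, microglia minus SH-SY5Y). Its adjusted p in edgeR's interaction test was 0.0506, just short of the threshold, and the test is built from both contrasts that were known when the genes were chosen. The adjusted p was 0.0010 with DESeq2, 0.0467 without the filter on low counts, 0.0587 with the shared part of the RNA libraries taken off, and 0.0666 to 0.375 when 1 replicate number was left out. All 6 microglia effects (-2.53 to -1.24) lay below all 6 SH-SY5Y effects (-0.87 to 1.09). Neither base alone passed edgeR's interaction test for activity: the difference was 1.04 (SE 0.40, adjusted p = 0.286) for C and -0.80 (SE 0.25, adjusted p = 0.128) for T. That of T passed in only 1 of 13 settings, without replicate 3 (-1.01).

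TSNARE1 encodes a protein with a t-SNARE domain, the kind of helix that drives membrane fusion, and is found on endosomes. For TSNARE1 rs72687374 G>A, the share of A was 41.6% to 43.4% (median 42.6%) in SH-SY5Y DNA and 44.6% to 62.8% (median 60.1%) in RNA. In microglia it was 40.6% to 47.7% (median 42.3%) in DNA and 54.3% to 72.7% (median 61.4%) in RNA. The effect was 0.82 ± 0.43 (SD, n = 6) in SH-SY5Y and 1.09 ± 0.43 (SD, n = 6) in microglia, 1.76-fold and 2.13-fold, the smallest of the 6 in microglia.

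Both TSNARE1 rs72687374 oligos were among the low ones. The G oligo had activities of -1.19 (SE 0.13) in SH-SY5Y and -1.85 (SE 0.10) in microglia, and the A oligo -0.38 (SE 0.11) and -0.77 (SE 0.09). The replicates of the 2 bases did not overlap in either line, with G at -2.39 to -1.40 and A at -1.12 to -0.55 in microglia. The SH-SY5Y call was lost without replicate 1, 2, 4, 5 or 6, at effects of 0.78, 0.75, 0.90, 0.78 and 0.75, and with the replicate number as a block, at 0.82. The SH-SY5Y activity call of the A oligo was lost without replicate 2, 3, 4, 5 or 6 and with the shared part of the RNA libraries taken off (-0.33).

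Set side by side in microglia, the 6 variants shared a form: one base left much less RNA than the typical oligo and the other was nearer to it. In SH-SY5Y this did not hold for SNX8, whose bases were at -0.69 and -0.73. The 6 variants were picked for a called allelic effect, so a gap between their bases in microglia was fixed by the choice. The low base was the reference in ATG13, CTSB, C16orf62 and TSNARE1 and the alternative in VPS13C and SNX8. In microglia the low base ranged from -2.17 (C16orf62) to -1.33 (VPS13C) and the other base from -0.77 (TSNARE1) to 0.36 (SNX8). The 5 variants called in both lines had microglia minus SH-SY5Y differences of -0.36 to 0.47, with adjusted p-values of 0.931 to 0.976 in edgeR's interaction test. No variant of the 6 genes passed that test, against 0.0462% of the 12989 variants tested. At an unadjusted p under 0.05 there were 8 of 124 (6.45%, beside 5.67% of all variants), and DESeq2 called 1, the SNX8 variant.

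None of the 5 SH-SY5Y calls remained with the shared part of the RNA libraries taken off, nor in limma on log ratios. The effects then kept their size (0.77 to 1.61 in absolute value with that part removed). At an unadjusted p under 0.05 the counts were 12 and 15 of 124, beside 14 (11.3%) in the edgeR test as designed, where 8.73% of all variants had such a p. Leaving out 1 replicate number left 1 to 3 calls in SH-SY5Y: 1 without replicate 1, 2, 5 or 6, 2 without replicate 3 and 3 without replicate 4. In microglia 6 variants were called under every one of those settings, and the 6 lead variants kept their calls in each of 13 settings.

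Across the 124 variants, effects in the 2 lines correlated at 0.32 (Pearson, across variants that share the same libraries). Without the 6 lead variants the value was 0.06 over 118. The same sign in both lines was seen for 72 of 124, and the 6 microglia replicates had a single sign for 22 variants, the 6 SH-SY5Y replicates for 8. Lead variants, picked for a called effect, are among these counts. The shares over all variants are not given here, so nothing is read from the counts.

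Among the uncalled variants, the one with the smallest unadjusted p was taken in each gene. TSNARE1 rs56161327 G>A came closest in microglia, at -0.98 ± 0.45 (SD, n = 6) with all 6 replicates negative (-1.59 to -0.35), and -0.45 ± 1.09 in SH-SY5Y. CTSB rs1736078 T>G was positive in all 6 microglia replicates (0.41 ± 0.20), and 4 of 6 in SH-SY5Y (0.21 ± 0.46). ATG13 rs7113194 G>T was negative in all 6 microglia replicates (-0.46 ± 0.24) and in 3 of 6 SH-SY5Y replicates (-0.26 ± 0.73).

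SNX8 rs6945323 C>T was at -0.94 ± 0.57 in microglia, negative in 6 of 6, and 0.04 ± 3.11 in SH-SY5Y, where replicates ran from -3.51 to 4.67 and no size can be read. VPS13C rs11638951 C>T had opposite signs in the lines, 0.68 ± 0.51 in microglia (5 of 6 positive) and -1.19 ± 1.38 in SH-SY5Y (4 of 6 negative). The difference was 1.85 (SE 0.57) and did not pass edgeR's interaction test (adjusted p = 0.511). C16orf62 rs112315887 A>G was at -0.11 ± 0.13 in microglia and -0.35 ± 0.36 in SH-SY5Y. The uncalled variants as a whole ran from -1.89 to 1.64 in SH-SY5Y, from CTSB to TSNARE1, and from -1.08 (CTSB) to 0.84 (TSNARE1) in microglia.

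Several SNPs had more than 1 alternative base. Both alternatives of CTSB rs74455364 had microglia effects of -0.04, while in SH-SY5Y A had 0.36 and T had -0.27. At CTSB rs139011577 the effects were spread from -0.66 to 0.20, and at CTSB rs59270740 from -0.40 to 0.42. At TSNARE1 rs56161327 the T alternative had -0.27 beside the -0.98 of A.

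Activity was tested on the oligos that did not belong to a lead variant, 215 of which had enough plasmid DNA. In microglia 32 (14.9%) left more RNA than the typical oligo and 40 (18.6%) less, where 8.74% and 12.4% of all 24136 oligos did. In SH-SY5Y 7 (3.26%) were higher and 13 (6.05%) lower, where the shares over all 24146 oligos were 4.26% and 4.8%. The genes were chosen with activity in these libraries known, so nothing is read from the distance of these shares to the pool. Over all 227 member oligos, lead oligos included, 33 were higher and 48 lower in microglia and 7 and 21 in SH-SY5Y. With libraries scaled on total counts the SH-SY5Y split became 2 higher and 23 lower, and with DESeq2 17 higher and 27 lower. With the shared part of the RNA libraries taken off, 1 higher and 9 lower oligos passed in SH-SY5Y. Activities in the lines correlated at 0.76 across 227 oligos, which share the oligo's sequence and its place in the pool. Oligos of one SNP differ by a single base, so the oligo counts are not counts of independent fragments.

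CTSB had the most low oligos of the 6 genes. Of its 72 other oligos, 21 (29.2%) were lower in microglia and 9 (12.5%) higher. All 21 belonged to 9 SNPs, and at each of these SNPs every base tested was low, the reference with 1 or 2 alternatives. These SNPs were picked out after their values were seen. By the mean over a SNP's oligos, the lowest were rs1142957 (-2.56 for G and -1.41 for T), rs3088245 (-1.68 and -1.45) and rs1065714 (-1.35 and -1.13). The first rests on few reads, with microglia RNA totals of 121 (G) and 136 (T), beside 396 to 622 for the oligos of rs3088245 and rs1065714. The 3 oligos of CTSB rs74455364 all lay between -0.82 and -0.80 in microglia, and between -0.82 and -0.24 in SH-SY5Y.

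The other low CTSB SNPs were rs139011577 (-1.62 to -0.82 over 3 oligos), rs73663020 (-1.12 and -0.72), rs11786618 (-0.91 and -0.84), rs1736078 (-0.90 and -0.49) and rs13361 (-0.56 to -0.40 over 3 oligos). In SH-SY5Y the oligos of the 9 SNPs were all below 0, from -1.78 to -0.24, and 7 of them passed the test. Of these 7, rs73663020 A passed in every setting run, while the others lost the call with the shared part of the RNA libraries taken off. CTSB rs3088245 C lost it under that setting alone. Calls also ended without replicate 4 or 5 for rs1065714 G, without 3, 4, 5 or 6 for rs11786618 T, without 1, 2, 3, 5 or 6 for rs13361 T, without 1, 4, 5 or 6 for rs73663020 G, and without 1, 3, 4 or 5 or with the replicate block for rs74455364 T. In microglia 3 of the 21 oligos lost the call in some setting. CTSB rs1142957 T did so without replicate 3, 4 or 5 (-1.30, -1.23 and -0.99), rs13361 C without replicate 1 or 3 and rs139011577 A without replicate 2 or 6. By the mean of both lines, the highest CTSB oligo with at least 100 plasmid counts was rs709821 G, at 0.63 ± 0.41 in SH-SY5Y and 0.41 ± 0.28 in microglia (SD, n = 6), called in both. It lost the SH-SY5Y call without replicate 1, 2, 4, 5 or 6 and the microglia call without replicate 1, 3, 5 or 6. The SH-SY5Y call also ended with scaling on total counts, with the replicate block and with the shared part of the RNA libraries taken off.

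TSNARE1 held more high than low oligos in microglia: 13 of 58 other oligos (22.4%) were higher and 9 (15.5%) lower. Counted by SNP this order did not hold. By SNP, with at least 2 oligos tested and the lead included, some but not all oligos were high at 4 and low at 6. All were low at 2. At 3 of its SNPs every base was high. TSNARE1 rs67717665 reached 0.70 (A) and 0.77 (G), rs117466083 0.54 to 0.58 over 3 oligos and rs67295124 0.28 and 0.64, of which T, at 0.28, lost its call without replicate 1, 2, 3, 4 or 5. In SH-SY5Y edgeR called none of these oligos, at 0.03 to 0.41, and DESeq2 called rs117466083 C and rs67717665 G. The lowest oligo with at least 100 plasmid counts was TSNARE1 rs79248723 C, at -2.60 in microglia and -2.93 in SH-SY5Y. Its SH-SY5Y RNA libraries ran from -5.51 to -0.76, and it lost that call without replicate 2, 3, 4, 5 or 6 and with the shared part taken off. The highest by the mean of both lines was TSNARE1 rs116837766 A, at 0.84 ± 0.57 in SH-SY5Y and 0.36 ± 0.28 in microglia, called in SH-SY5Y and not in microglia, a difference that did not pass the interaction test (adjusted p = 0.653, edgeR). Its SH-SY5Y call ended without replicate 1, 2, 3, 4 or 6, with total counts, with the replicate block and with the shared part taken off.

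The other genes had fewer oligos in the pool. In SNX8, 4 of 20 other oligos were higher and 5 lower in microglia. Both bases of SNX8 rs12534131 were low (-0.86 and -0.65) and both of rs4719471 high (0.54 and 0.45, the second not without replicate 6). SNX8 rs56019648 G had -2.23 in microglia on a total of 68 RNA counts. In ATG13, 3 of 21 (14.3%) were higher and 3 (14.3%) lower. Both bases of ATG13 rs12276664 were slightly high (0.28 and 0.29) and both of rs144426443 low (-0.45 and -0.39), and ATG13 rs11038967 C was highest at 0.66 ± 0.57, a call lost without replicate 1, 2, 4 or 5.

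In VPS13C, 3 of 40 (7.5%) were higher and 2 (5.0%) lower in microglia, with both bases of VPS13C rs3210522 high (0.51 and 0.64). None of the 4 other C16orf62 oligos passed in either line, with microglia activities of 0.13 to 0.26. The highest, C16orf62 rs112315887 A, had 0.52 ± 0.38 in SH-SY5Y and 0.26 ± 0.34 in microglia, and passed in SH-SY5Y with DESeq2 and without replicate 3.

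The activity of 2 oligos differed between the lines, of 227 tested. Over all 24099 oligos the share was 0.921%. The genes were chosen with activity in each line known, and this test is built from both of those contrasts. Nothing is read from the count, and the p-values of these oligos are given under that limit. TSNARE1 rs67717665 A had replicates from -0.24 to 0.35 (median 0.05) in SH-SY5Y and from 0.54 to 0.89 (median 0.68) in microglia. These do not overlap, and the difference was 0.63 (SE 0.11, microglia minus SH-SY5Y, adjusted p = 0.0018, edgeR). Its G oligo had a difference of 0.47 (SE 0.13, adjusted p = 0.0655), short of the threshold.

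CTSB rs73209015 G had replicates from -0.91 to -0.35 (median -0.44) in SH-SY5Y and from 0.03 to 0.45 (median 0.31) in microglia. It was low in one line and high in the other, with a difference of 0.77 (SE 0.14, adjusted p = 0.0019, edgeR). Its microglia activity of 0.25 lost the call without replicate 2, 3 or 5 (0.21, 0.20 and 0.21), while the difference between lines passed in every setting run. The other oligos of the SNP had differences of 0.16 (A, adjusted p = 0.894) and 0.41 (T, adjusted p = 0.507).

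For each lead variant, the 2 variants of other genes with the most similar replicate effects were found by Euclidean distance over the 12 RNA libraries, among 11626 variants with at least 100 plasmid counts per allele and line. ATG13 rs7113453 and C16orf62 rs116582019 were each other's nearest, at a distance of 1.84. Both were picked for called positive effects in both lines, and the distance is computed on those effects. Nothing is therefore read from their nearness. The next were ZDHHC24 rs11227523 G>A for ATG13 (2.26) and TRIM26 rs7843 T>C for C16orf62 (2.34). Nearest to the CTSB variant were TRMT2A rs114225267 C>T (1.84) and SFTA2 rs2532925 C>T (1.97), and nearest to the VPS13C variant POC1B-GALNT4 rs3864928 G>C (1.92) and ZKSCAN4 rs75876212 T>C (1.93). The TSNARE1 variant was nearest to TRIM11 rs79654767 T>C (1.48). The SNX8 variant had no neighbour as close: SPATA33 rs7197444 C>T (2.63) and PDCD5 rs75083136 T>G (2.94) had SH-SY5Y effects of -0.50 and -0.59, where SNX8 was near 0.

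A list of 331 genes of the same system, sorted by role, had 38 genes in the pool with 397 variants. By role these were 6 genes of autophagy initiation and ATG conjugation, 1 autophagy receptor, 4 lysosomal hydrolases and activators, 7 of the lysosomal membrane, acidification and signalling, 3 of Retromer, Retriever, CCC and WASH, 1 sorting nexin, 2 of VPS13 and lipid transfer, 5 endosomal SNAREs and 9 of tethering, ESCRT and endosomal GTPases. Outside the 6 genes described here the list left 32 genes and 265 variants, 259 of them tested. In SH-SY5Y edgeR called none of the 259, with 19 at an unadjusted p under 0.05, and DESeq2 called 4. Over all variants edgeR called 0.399% there, 8.73% had an unadjusted p under 0.05 beside 7.34% of the list, and DESeq2 called 2.68% beside 1.54%. In microglia edgeR called 1 (0.386%), with 21 at an unadjusted p under 0.05, and DESeq2 called 5. Over all variants edgeR called 1.74%, 9.38% had an unadjusted p under 0.05 beside 8.11% of the list, and DESeq2 called 352 of 13017 variants.

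The single call was VAC14 rs936303 A>G, in the gene for the scaffold of the kinase complex that makes a phosphoinositide of late endosomes. G left less RNA, at -0.83 ± 0.14 (SD, n = 6; adjusted p = 0.00016, edgeR) in microglia and -0.47 ± 0.45 in SH-SY5Y (adjusted p = 0.423). Next in microglia were RAB11B rs6603066 C>T, in a GTPase of recycling endosomes, at -1.14 ± 0.92 (adjusted p = 0.0729), and EPG5 rs570975 C>T, in a tether of autophagosomes to lysosomes, at 0.68 ± 0.30 (adjusted p = 0.0733). The smallest p-values in SH-SY5Y belonged to NSF rs35732828 C>A (3.73 ± 2.28, on 14.8 RNA counts per library for the reference), GPR65 rs114064763 G>A (-0.83 ± 0.48) and LAMP3 rs491841 C>T (1.103 ± 0.48), with edgeR adjusted p-values of 0.153, 0.183 and 0.263.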

How the data were processed

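The deposited table held whole-number counts per variant, allele and library, made by the authors with cutadapt 2.7, UMI-tools 1.0.0, Bowtie2 and SAMtools 1.10, per the submitters' processing notes. RNA was reverse transcribed with a 10 nt molecular identifier, per the labels' protocols, and no source used here says whether DNA counts were collapsed. Allelic effects were fitted with edgeR 4.0.16 (R 4.3.3): the REF and ALT columns of a library were separate observations, and the model held a term for each library. Activity was fitted on RNA against DNA per oligo with TMM scaling, and differences between lines as interaction terms over 24 libraries. Adjusted p-values are Benjamini-Hochberg values over all variants or oligos. DESeq2 1.42.0, limma 3.58.1, other filters and left-out replicates were alternatives. Values per replicate used a pseudocount of 0.5 against the mean of the DNA libraries. The microglia tests of the allelic effect and of activity were checked on simulated data. The SH-SY5Y tests and the interaction tests were not. The member genes, the gene list by role and the rules for naming variants (called variants, the uncalled variant with the smallest p, the highest and lowest oligo of at least 100 plasmid counts, and the 2 nearest variants) were chosen with earlier results of these data known. One of the nearest variants is not reported here. Each replicate was an independent transfection per the labels, and p-values measure the spread between them. Counts from PCR reads are not independent molecules.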

Additional observations from a re-analysis of the deposited data

Results flagged for a closer look

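Dixon's ratio is the gap of the farthest replicate to its nearest neighbour over the whole range. It was above the critical value for 6 samples in 15 of 136 sets of 6 replicates. Chance alone gives about 1 in 20 for independent sets of normal values. These sets share libraries, and some values rest on 24 counts or fewer, so no excess is read from the comparison. In SH-SY5Y RNA, replicate 3 was lowest for C16orf62 rs116582019 C (ratio 0.646; activity -2.55, others -1.44 to -0.84), SNX8 rs56019648 G (0.742; -3.64 on 6 counts, others -0.63 to 0.42), ATG13 rs11038967 C (0.657; -1.02, others 0.48 to 1.26) and ATG13 rs144426443 G (0.688; -0.81, others -0.0084 to 0.36). Replicate 2 of SH-SY5Y RNA was lowest for ATG13 rs12276664 T (0.815; 0.09, others 0.32 to 0.37), ATG13 rs144426443 A (0.639; -0.74, others -0.19 to 0.13), CTSB rs11786618 T (0.646; -2.34, others -1.09 to -0.41) and CTSB rs1736078 T (0.690; -1.35, others -0.50 to -0.12). Replicate 1 of SH-SY5Y RNA was lowest for CTSB rs1065714 G (0.700; -4.11 on 24 counts, others -1.88 to -0.92) and highest for TSNARE1 rs79248723 C (0.648; -0.76 on 95 counts, others -5.51 to -3.84).

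In microglia RNA, replicate 6 was lowest for ATG13 rs11038967 C (0.665; -0.46, others 0.63 to 1.18), CTSB rs139011577 C (0.745; -5.35 on 1 count, others -1.90 to -0.72) and CTSB rs1736078 T (0.650; -1.24, others -0.93 to -0.77). Replicate 5 was lowest for TSNARE1 rs79248723 C (0.767; a count of 0, which the pseudocount places at -7.56, others -2.97 to -1.58) and replicate 1 for SNX8 rs12534131 A (0.740; -1.46, others -0.87 to -0.67).

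Activity differed between the lines, by the interaction test, for TSNARE1 rs67717665 A (0.63) and CTSB rs73209015 G (0.77). Activity in each line was known when the genes were chosen, so these differences are a description.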

How the results depend on the processing

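The 5 SH-SY5Y calls of an allelic effect became 0 with limma on log ratios, 0 with the shared part of the RNA libraries subtracted (chosen after seeing the data) and 1 to 3 with a replicate number left out. The difference between lines, with 0 calls, gave 1 with DESeq2 and 1 without the filter. The 28 calls of activity in SH-SY5Y became 44 with DESeq2, 10 with the shared part subtracted and 17 to 22 with a replicate number left out. Fitting reference oligos alone, which leaves 102 oligos, gave 8 calls in SH-SY5Y, 34 in microglia (beside 81) and 1 for the difference. The 2 calls of an activity difference became 7 with DESeq2, 4 with the shared part subtracted and 2 to 5 with a replicate number left out. The cause of these changes was not tested. Microglia allelic calls numbered 6 to 9 in all settings run, and no called value changed sign. Over all variants, DESeq2 called 349 in SH-SY5Y, where edgeR called 52 and limma 31.

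Same-numbered DNA and RNA libraries deviated together only weakly (correlations of 0.015 to 0.060, none over 0.1), so the numbers were not taken as pairs. At the oligo level every library correlated best with its own number. For the allele ratio 4 of 6 did in SH-SY5Y and 6 of 6 in microglia. With the replicate block, allelic calls numbered 4 in SH-SY5Y and 8 in microglia, and activity calls 23 and 83.

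Depth limited the rarer oligos most: the reference of SNX8 rs62442512 had as few as 69 plasmid counts in a library.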
